A study of Homo sapiens with 18 samples.

Results

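The hepatocyte transcription factor network was followed here through 8 genes, HNF4A, FOXA1, FOXA2, FOXA3, CEBPA, ONECUT1, PROX1 and NR5A2, chosen by name as core regulators of the hepatocyte programme. Every probe of the array assigned to one of them was used, which gave 9 probes, 1 for each gene and 2 for NR5A2, among 29894 probes and 15852 named genes tested. All 9 probes were well above background on all 18 arrays. The arrays carried RNA of EpCAM+ cells of Huh1 and Huh7, established human hepatocellular carcinoma (HCC) lines that each stem from 1 tumor. EpCAM is the surface protein by which tumor-initiating cells of these lines were enriched. All 6 groups share that sort, which the labels list after the drug exposure. In each line, control cells were compared with cells exposed for 48 hours to disulfiram (DSF) at 0.1 µM, or to 5-fluorouracil (5-FU), an antimetabolite, at 1 µM, with 3 arrays from 3 independent experiments in each of the 6 groups. DSF is an inhibitor of aldehyde dehydrogenase that was given together with copper chloride. Whether the control cells received copper is not given in the sources used here, so copper and DSF cannot be told apart.

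In the liver these factors bind the control regions of one another and of the genes that make plasma proteins, lipoproteins, clotting factors and metabolic enzymes. FOXA proteins open closed chromatin, HNF4A and NR5A2 are nuclear receptors, CEBPA is a leucine zipper factor that also restrains growth, ONECUT1 (HNF6) acts on HNF4A and the FOXA genes during development, and PROX1 is an early hepatoblast factor that can act as a corepressor of HNF4A and NR5A2. Their loss or re-expression is a familiar feature of HCC differentiation.

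The members' own promoters were read for the binding motifs of these factors. RefSeq (GRCh38.p14) gave the window from 250 bases before to 50 bases after the start site for 8 promoters of 6 members, and none for FOXA2 or PROX1. Both strands were searched for CAAAGTCCA (HNF4), TGTTTAC (FOXA), ATCAAT (ONECUT), TTGCGCAA (CEBP) and CAAGGTCA (NR5A). Only 3 of the 8 windows held a match. They are printed 5′ to 3′ because the same factors were measured on the arrays, and capitals mark the matches.

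HNF4A, upstream promoter, chr20:44355449-44355748, plus strand: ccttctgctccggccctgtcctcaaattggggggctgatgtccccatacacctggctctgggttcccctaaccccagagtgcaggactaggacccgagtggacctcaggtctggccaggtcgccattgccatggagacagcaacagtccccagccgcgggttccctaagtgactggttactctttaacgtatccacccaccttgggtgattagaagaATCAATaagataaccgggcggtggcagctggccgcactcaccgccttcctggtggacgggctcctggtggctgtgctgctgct

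HNF4A, downstream promoter, chr20:44400989-44401288, plus strand: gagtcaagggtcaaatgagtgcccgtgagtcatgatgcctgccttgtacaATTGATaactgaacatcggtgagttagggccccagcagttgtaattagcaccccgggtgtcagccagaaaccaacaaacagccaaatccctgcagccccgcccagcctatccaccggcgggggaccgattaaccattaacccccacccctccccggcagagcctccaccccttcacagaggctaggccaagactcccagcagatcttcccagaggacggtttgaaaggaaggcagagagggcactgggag

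NR5A2, chr1:200042341-200042640, plus strand: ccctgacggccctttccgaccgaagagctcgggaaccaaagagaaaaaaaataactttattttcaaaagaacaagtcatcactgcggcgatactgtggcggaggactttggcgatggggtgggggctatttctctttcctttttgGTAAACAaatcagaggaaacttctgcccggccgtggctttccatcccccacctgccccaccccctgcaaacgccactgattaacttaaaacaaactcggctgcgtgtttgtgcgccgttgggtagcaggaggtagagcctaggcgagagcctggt

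The upstream HNF4A window held 1 ONECUT match, which began 33 bases before the start site. The downstream window held 1 ONECUT match, ending 195 bases before the start site, and the NR5A2 window held 1 FOXA match, both reading on the opposite strand. Over all 35116 promoters of the table, 6.26% held the ONECUT letters, 3.42% the FOXA letters, 1.28% the NR5A letters, 0.384% the HNF4 letters and 0.151% the CEBP letters. A match is a run of letters in the reference and does not show that a factor binds there. The windows of CEBPA, FOXA1, FOXA3 and ONECUT1 and a second window of NR5A2 held none of the 5 motifs.

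Levels are given as normalized log2 intensity, the log2 of the processed signal minus the log2 of the array's 75th percentile, so a value of 0 is the brightness that 75% of the probes on that array did not reach. They compare groups for 1 probe and not 1 gene with another. Differences between groups are on the same log2 scale and come from a limma fit over all 18 arrays, with Benjamini-Hochberg adjusted p over all probes tested. The term "called" stands for an adjusted p under 0.05. With so many changes on these arrays, the share of all genes called is the background against which each count of members is to be read. RNA of a whole population was measured, so fewer cells of a kind and less RNA per cell cannot be told apart.

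The markers of the labelled cell type were present. Of 10 hepatocyte markers, 10 were on the array and 9 or 10 were well above background on every array of each group, and EPCAM was well above background on all 18 arrays. The defining markers of other cells were dim: KDR of endothelium on 0 arrays, COL3A1 and COL1A2 of fibroblasts on 1 and 2 arrays, and CD3E of T cells on 6. The cholangiocyte keratins KRT7 and KRT19 were well above background on all 18 arrays. All Huh1 control arrays lay on 1 slide and all Huh7 control arrays on another. Replicate 3 of the Huh1 DSF group lay on the Huh7 slide, and replicates 2 and 3 of the Huh7 DSF group on a slide of their own.

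DSF lowered most of the network in Huh1 cells. Of the 8 members, 7 were called lower and 0 higher, where 52.6% of all genes were called in either direction, 26.3% lower and 26.4% higher. The median of the members was -0.59, that of all genes -0.02. Of the genes called in Huh1, 50.1% were higher, against 30.9% with median scaling and 70.0% with spike-in scaling, while 7 and 4 members were called lower under these scalings. Of all 15852 genes, 6034 and 1679 were called lower under them. FOXA2 (-0.34, adjusted p = 0.108), PROX1 (-0.28, adjusted p = 0.287) and NR5A2 (-0.36, adjusted p = 0.0827) were the ones lost relative to the spike-ins. In Huh7 cells 5 members were called, 4 lower and 1 higher, against 53.2% of all genes in either direction, 24.1% lower and 29.1% higher, with a median of -0.20. HNF4A, ONECUT1 and NR5A2, by its brighter probe, were lower in both lines, a pattern met by 10.3% of all genes.

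HNF4A, the nuclear receptor at the centre of the network, lay at -1.95, -2.27 and -2.10 on the 3 Huh1 control arrays and at -3.04, -3.05 and -2.93 after DSF. In Huh7 it lay at -2.13, -2.17 and -2.08 in the control and at -2.71, -2.91 and -2.78 after DSF. All DSF arrays were below all control arrays of their line. The decrease was 1.87-fold in Huh1 (log2 difference -0.90, standard error 0.090, limma adjusted p = 2.23e-06) and 1.60-fold in Huh7 (-0.67, standard error 0.090, adjusted p = 3.37e-05). In Huh7 the value was -0.58 within the slide that held the controls and 1 DSF array, and it was still called there (adjusted p = 0.0111). The probe was designed on 1 of 10 curated HNF4A transcripts, and the transcripts of the upstream and downstream promoters were not told apart.

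ONECUT1 gave control values of 1.28, 1.54 and 1.62 in Huh1 against 0.75, 0.77 and 0.69 after DSF. The Huh7 values were 0.82, 0.85 and 0.74 in the control and 0.55, 0.52 and 0.44 after DSF. The groups did not overlap in either line. The decrease was 1.67-fold in Huh1 (log2 difference -0.74, adjusted p = 5.87e-06) and 1.23-fold in Huh7 (-0.30, adjusted p = 0.00775). The Huh7 call was lost with slide as a block (-0.26, adjusted p = 0.135).

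NR5A2, which drives bile acid and cholesterol genes in hepatocytes, was measured by 2 probes made from the same transcript record. With the brighter one, Huh1 values fell from 0.80, 0.78 and 0.68 to 0.28, 0.25 and 0.26, and Huh7 values from 1.24, 1.26 and 1.31 to 0.98, 0.75 and 0.75. Groups were again apart in both lines, and the Huh7 DSF array on the control slide was the one nearest to the controls. The decrease was 1.40-fold in Huh1 (log2 difference -0.49, adjusted p = 6.72e-05) and 1.36-fold in Huh7 (-0.45, adjusted p = 1.63e-04). Within the control slide the Huh7 value was -0.29 (adjusted p = 0.0555).

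With the dimmer NR5A2 probe no decrease was called. Its Huh1 values were -2.62, -3.27 and -2.93 in the control and -2.74, -2.86 and -2.98 after DSF, and its Huh7 values were -2.71, -2.53 and -2.70 against -2.76, -2.84 and -2.83. The differences were 0.08 (adjusted p = 0.67) and -0.16 (adjusted p = 0.336). Across the 18 arrays the probes correlated with r = 0.54, and with r = 0.32 once each line's mean was subtracted. With the mean of both probes the NR5A2 decrease in Huh1 was no longer called (-0.21, adjusted p = 0.0732).

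CEBPA showed the greatest decrease among the members in Huh1 and none that passed the test in Huh7. The Huh1 control arrays read 6.04, 6.01 and 5.94 and the Huh1 DSF arrays 4.74, 4.68 and 4.79, a 2.40-fold decrease (log2 difference -1.26, standard error 0.14, adjusted p = 7.66e-06). In Huh7 the control arrays read 5.18, 5.16 and 5.18 and the DSF arrays 5.05, 5.04 and 5.05. Although the Huh7 groups did not overlap either, the difference was -0.12 with a 95% interval from -0.43 to 0.19 (adjusted p = 0.505), since the fit shares 1 estimate of the spread over all 6 groups. The difference between the lines was itself called (1.14, adjusted p = 5.57e-04).

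The FOXA genes each behaved differently after DSF. FOXA1 went in opposite directions in the 2 lines. Its Huh1 values were 2.60, 2.77 and 2.75 in the control and 2.03, 2.02 and 1.98 after DSF, while its Huh7 values were 1.80, 1.84 and 1.86 in the control and 2.22, 2.06 and 2.10 after DSF. The control levels of the lines were thus apart, and the DSF levels lay between them. FOXA1 fell 1.62-fold in Huh1 (log2 difference -0.70, adjusted p = 3.05e-05) and rose 1.23-fold in Huh7 (0.29, adjusted p = 0.0185). The effects of the lines differed by 0.99 (adjusted p = 4.89e-05). The rise in Huh7 was not called within the control slide (0.39, adjusted p = 0.0732) or with scaling to the spike-ins (0.12, adjusted p = 0.597). It was also lost without replicate 1 of the Huh7 control (adjusted p = 0.0558) or of the DSF group (adjusted p = 0.06).

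FOXA2 read 2.70, 2.87 and 2.84 in the Huh1 control and 2.32, 2.31 and 2.36 after DSF, without overlap, a 1.39-fold decrease (log2 difference -0.48, adjusted p = 7.4e-05). In Huh7 the control arrays read 4.02, 4.06 and 3.98 and the DSF arrays 4.02, 3.80 and 3.88, with overlapping values and no call (-0.12, adjusted p = 0.179). FOXA3 overlapped in Huh1, at -0.65, -0.28 and -0.30 in the control and -0.32, -0.41 and -0.33 after DSF (0.06, adjusted p = 0.692). In Huh7 it was at -0.05, -0.11 and -0.07 in the control and -0.34, -0.34 and -0.38 after DSF, a 1.21-fold decrease (-0.28, adjusted p = 0.0396). That call was lost without any 1 of the 6 Huh7 arrays of the comparison, with adjusted p from 0.06 to 0.104.

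PROX1 was at -1.07, -0.95 and -0.61 in the Huh1 control and at -1.32, -1.25 and -1.27 after DSF. The decrease was 1.33-fold (log2 difference -0.41, adjusted p = 0.0125) and was not called without the third control array, the highest of its group (-0.28, adjusted p = 0.0671). In Huh7 the control arrays read -0.31, -0.17 and -0.25 and the DSF arrays 0.15, -0.15 and -0.14, a difference of 0.19 that was not called (adjusted p = 0.202). The first DSF array, on the control slide, was the highest.

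**Figure D1:**
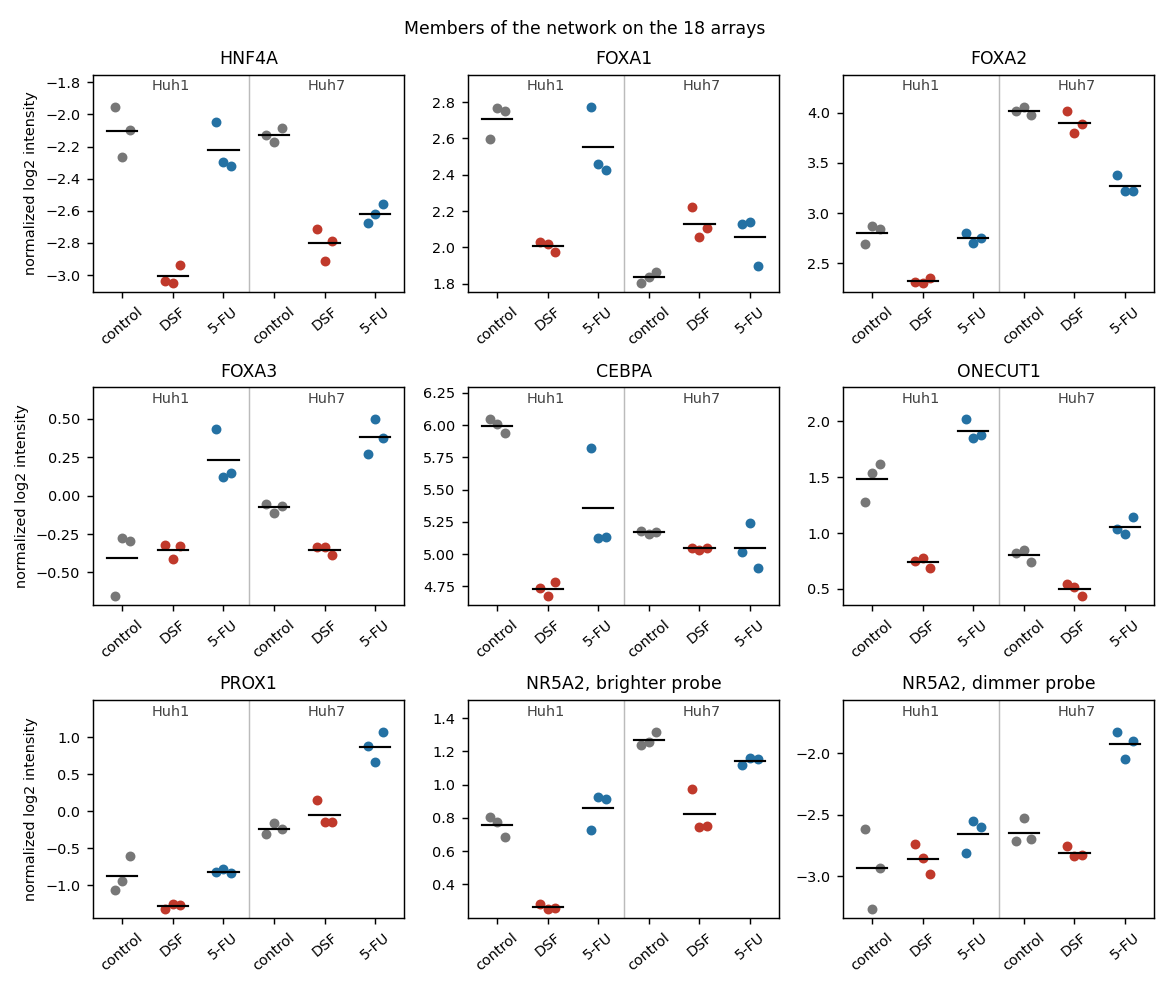
Normalized log2 intensity (vertical axis, a separate range in each panel) of the 9 probes on the 18 arrays, by line and treatment; points are arrays and black bars group means, n = 3. HNF4A, ONECUT1 and the brighter NR5A2 probe are lower after DSF in both lines, CEBPA only in Huh1 by more than 1 log2 unit, and PROX1 is highest after 5-FU in Huh7.

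Fewer members were called after 5-FU in Huh1 with scaling to the 75th percentile, 3 against 7 after DSF, but more with spike-in scaling, 7 against 4. Of all 15852 genes, 12374 were called after 5-FU in Huh1 with spike-in scaling, against 5605 after DSF. Relative to the 75th percentile, 3 members were called in Huh1, 2 higher and 1 lower. Of all genes, 54.9% were called there, 25.9% higher and 29.1% lower. In Huh7, 5 were called, 3 higher and 2 lower, where 63.5% of all genes were called, 32.5% higher and 31.0% lower. FOXA3 and ONECUT1 were higher in both lines, a pattern met by 16.0% of all genes. The member medians were 0.00 and 0.05, close to those of all genes (-0.03 and -0.01). The scale matters for these counts: the 75th percentile itself stood 0.83 higher relative to the spike-in controls after 5-FU in Huh1 and 0.99 higher in Huh7, against 0.13 and -0.17 after DSF. With spike-in scaling the median of all genes moved to 0.80 and 0.98, and 98.2% and 95.5% of the genes called were higher, against 47.1% and 51.2%. Every 5-FU difference given here rises by these 0.83 or 0.99 under that scaling. The DSF shifts differed by slide. Minus the spike-in level, the percentile of the Huh1 DSF arrays was -4.07 and -4.02 on the control slide and -3.78 on the Huh7 slide. Huh1 controls lay from -4.10 to -4.07. The Huh7 DSF array on the control slide was at -3.96 and those on another slide at -4.31, with controls from -4.08 to -3.94. The part of the slide in DSF values with spike-in scaling was not tested.

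FOXA3 rose to 0.43, 0.12 and 0.15 in Huh1 after 5-FU and to 0.27, 0.50 and 0.38 in Huh7, above every control array of the same line. The increases were 1.56-fold (log2 difference 0.64, adjusted p = 1.4e-04) and 1.37-fold (0.46, adjusted p = 0.00148). ONECUT1 rose to 2.02, 1.85 and 1.88 in Huh1 and to 1.04, 0.99 and 1.15 in Huh7, again without overlap. Its increases were 1.35-fold (0.44, adjusted p = 5.4e-04) and 1.19-fold (0.25, adjusted p = 0.0161). The Huh7 call of ONECUT1 was lost without replicate 3 of the control (adjusted p = 0.0627) or of the 5-FU group (adjusted p = 0.0648). ONECUT1 therefore went down after DSF and up after 5-FU in each line.

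PROX1 gave the greatest member change after 5-FU, in Huh7. The Huh7 5-FU arrays read 0.88, 0.67 and 1.06, all far above the control arrays, a 2.16-fold increase (log2 difference 1.11, standard error 0.12, adjusted p = 2.08e-06). The Huh1 5-FU arrays read -0.82, -0.79 and -0.84, within the range of the control arrays (0.06, adjusted p = 0.738). The difference between the lines was 1.05 (adjusted p = 2.56e-04).

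HNF4A and FOXA2 went down in Huh7 after 5-FU. HNF4A read -2.68, -2.62 and -2.56, a 1.40-fold decrease without overlap (log2 difference -0.49, adjusted p = 3.02e-04), and in Huh1 -2.05, -2.30 and -2.32, overlapping the control (-0.12, adjusted p = 0.302). FOXA2 read 3.38, 3.22 and 3.22 in Huh7, a 1.68-fold decrease (-0.75, adjusted p = 5.04e-07), and 2.80, 2.71 and 2.75 in Huh1 (-0.05, adjusted p = 0.587). Among the alternatives run, only spike-in scaling turned these Huh7 directions. With spike-in scaling HNF4A was called higher in Huh7 (0.50, adjusted p = 0.00776), and FOXA2 was at 0.24 (adjusted p = 0.165).

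CEBPA was lower in Huh1 after 5-FU, with an uneven group. The arrays read 5.82, 5.12 and 5.13, so the first lay close to the control and the other two well below. The decrease was 1.56-fold (log2 difference -0.64, adjusted p = 0.00217) and -0.87 without the first 5-FU array. With spike-in scaling the value was 0.19 (adjusted p = 0.331). The Huh7 arrays read 5.02, 5.24 and 4.90 and overlapped the control (-0.12, adjusted p = 0.506).

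FOXA1 and the brighter NR5A2 probe were not called after 5-FU. FOXA1 read 2.78, 2.46 and 2.43 in Huh1 (log2 difference -0.15, adjusted p = 0.195) and 2.13, 2.14 and 1.90 in Huh7 (0.22, adjusted p = 0.0565). Brighter-probe NR5A2 values were 0.73, 0.93 and 0.92 in Huh1 (0.10, adjusted p = 0.253) and 1.11, 1.16 and 1.16 in Huh7 (-0.13, adjusted p = 0.147). The dimmer probe read -2.82, -2.55 and -2.60 in Huh1 (0.28, adjusted p = 0.0943) and -1.83, -2.05 and -1.90 in Huh7, all above the control (0.72, adjusted p = 3.04e-04). The call of the probes thus differed after DSF in Huh1 and Huh7 and after 5-FU in Huh7, and the difference between probes was not tested.

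**Figure D2:**
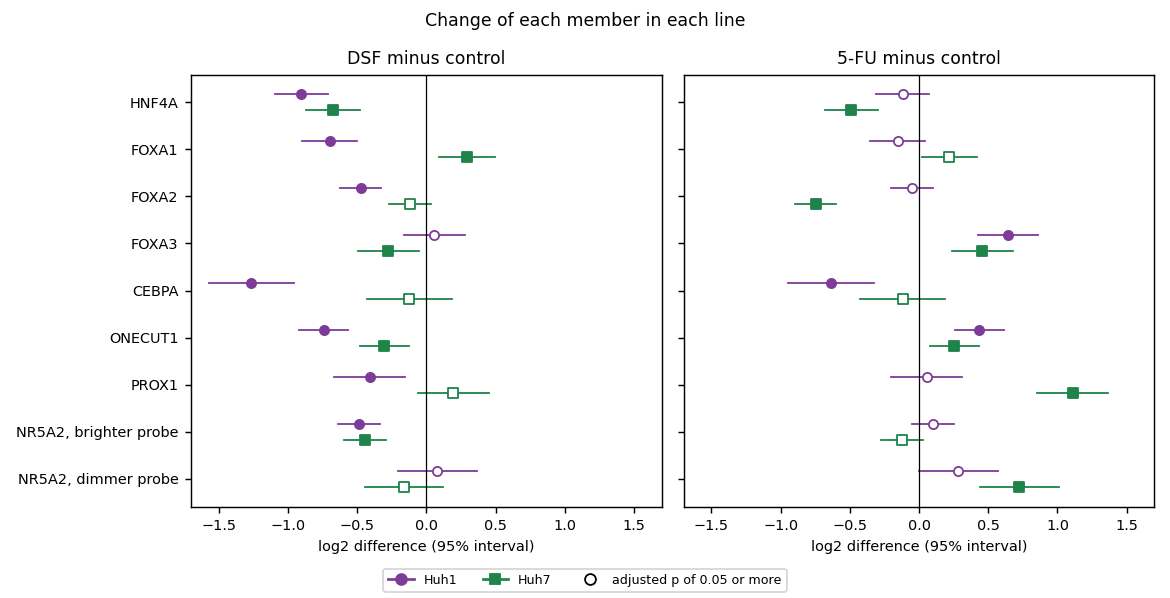
Log2 difference from control (horizontal axis) of each probe after DSF (left) and 5-FU (right) in Huh1 (circles) and Huh7 (squares); lines are 95% intervals from the limma fit and open symbols have an adjusted p of 0.05 or more. DSF points of Huh1 lie left of 0 for 7 of 8 genes, NR5A2 by its brighter probe only. The 5-FU points of FOXA3 and ONECUT1 lie right of 0 in both lines.

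Set directly against 5-FU, DSF left every member lower in Huh1. All 8 were called lower, where 55.8% of all genes were called and 25.3% were called lower. NR5A2 counts here by its brighter probe, while its dimmer probe was at -0.20 and not called (adjusted p = 0.222). The differences ran from -1.18 for ONECUT1 (adjusted p = 7.09e-08) and -0.78 for HNF4A (adjusted p = 7.2e-06) to -0.43 for FOXA2 (adjusted p = 1.75e-04). In Huh7, 5 were called, where 65.2% of all genes were. PROX1 (-0.92), FOXA3 (-0.73), ONECUT1 (-0.56) and NR5A2 (-0.32) were lower after DSF, and FOXA2 was higher (0.63, adjusted p = 2.91e-06). HNF4A was at -0.18 in Huh7 (95% interval -0.38 to 0.01, adjusted p = 0.0892) and CEBPA at 0.00 (95% interval -0.31 to 0.30, adjusted p = 0.979). With spike-in scaling FOXA2 was at -0.53 in Huh7.

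The lines differed before treatment, but all Huh1 control arrays lay on 1 slide and all Huh7 control arrays on another. Line and slide cannot be told apart in this comparison. Of the 8 members, 7 were called between Huh7 and Huh1 controls, where 77.9% of all genes were. FOXA2 was 2.32-fold higher in Huh7 (log2 difference 1.22, adjusted p = 7.44e-10), and PROX1 (0.63), NR5A2 (0.52) and FOXA3 (0.33) were higher too, FOXA3 not being called without Huh1 control replicate 1 (0.21, adjusted p = 0.0538). The dimmer NR5A2 probe was at 0.29 and not called (adjusted p = 0.0653). FOXA1 was 1.83-fold lower (-0.87, adjusted p = 7.67e-07), and CEBPA (-0.83) and ONECUT1 (-0.68) were lower. HNF4A was at -0.02 (95% interval -0.22 to 0.17, adjusted p = 0.824).

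The DSF effect differed between the lines for 5 members, all less negative or more positive in Huh7, where 46.3% of all genes were called for this difference and 24.3% in that direction. CEBPA (1.14) and FOXA1 (0.99) differed most, followed by PROX1 (0.60, adjusted p = 0.0118), ONECUT1 (0.44, adjusted p = 0.00822) and FOXA2 (0.36, adjusted p = 0.0106). HNF4A (0.23, adjusted p = 0.166) and NR5A2 (0.04, 95% interval -0.17 to 0.26, adjusted p = 0.756) were not called. The 5-FU effect differed for 4 members, where 43.6% of all genes were called. PROX1 (1.05) and FOXA1 (0.37, adjusted p = 0.0386) were higher in Huh7 by this measure, and FOXA2 (-0.70, adjusted p = 9.29e-05) and HNF4A (-0.37, adjusted p = 0.0334) were lower. With median scaling the last of these and that of FOXA1 were not called (HNF4A, adjusted p = 0.106, and FOXA1, adjusted p = 0.0622).

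Ordered by group, the highest mean level was found in the Huh1 control for HNF4A, FOXA1 and CEBPA, in the Huh7 control for FOXA2 and brighter-probe NR5A2, in the Huh1 5-FU group for ONECUT1 and in the Huh7 5-FU group for FOXA3 and PROX1. The order holds relative to the 75th percentile, since with spike-in scaling the 5-FU group of the same line passes each control named here. The lowest was the Huh1 DSF group for HNF4A, FOXA2, CEBPA, PROX1 and NR5A2, the Huh7 DSF group for ONECUT1, the Huh7 control for FOXA1 and the Huh1 control for FOXA3. Neighbours overlapped at the top for HNF4A, where the Huh1 control, Huh7 control and Huh1 5-FU arrays were interleaved. The top group also overlapped the next for FOXA1 (Huh1 control with Huh1 5-FU), FOXA2 (Huh7 control with Huh7 DSF) and FOXA3 (Huh7 with Huh1 5-FU). CEBPA overlapped over the Huh1 5-FU group and all 3 Huh7 groups, and for FOXA3 the 3 lowest groups included both DSF groups, which overlapped.

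**Figure D3:**
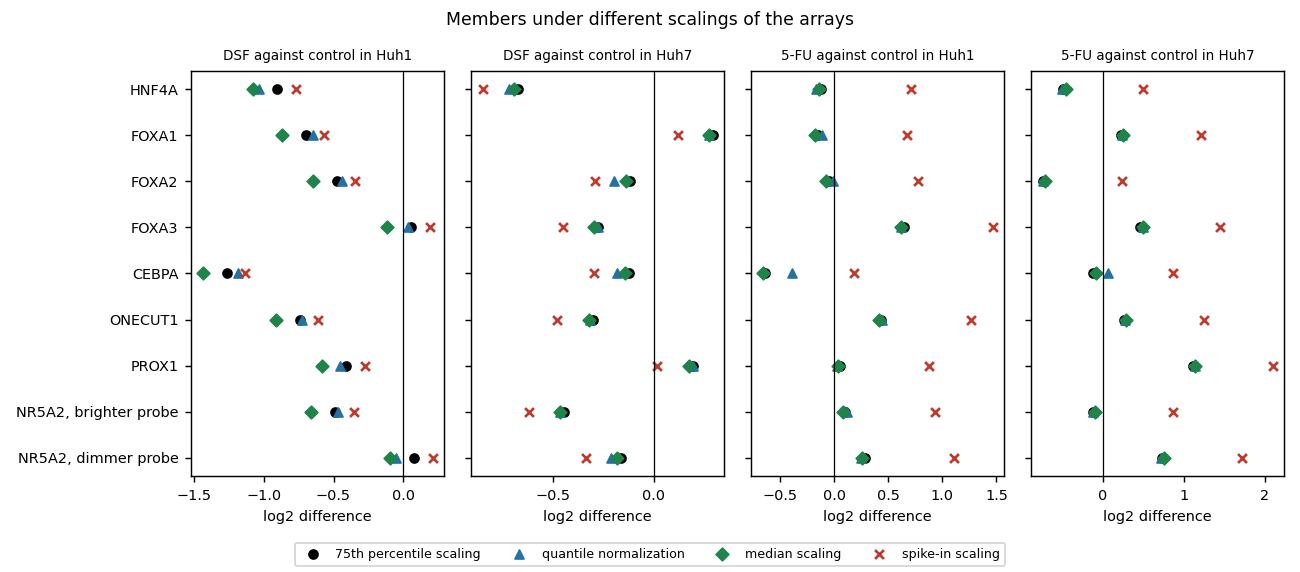
Log2 difference from control (horizontal axis, a separate range in each panel) of each probe under 4 ways of scaling the arrays: to the 75th percentile, by quantile normalization, to the median and to the spike-in controls. Spike-in scaling moves all 5-FU values to the right, across 0 for HNF4A, FOXA2 and CEBPA in both lines, FOXA1 in Huh1 and brighter-probe NR5A2 in Huh7, and moves the DSF values by 0.13 and -0.17.

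Among 27 other liver regulators, 26 were tested. KLF15 was too dim to test. After DSF, 5 were higher and 11 lower in Huh1, and 8 were higher and 7 lower in Huh7, with medians of -0.03 and 0.04. The 61.5% and 57.7% called compare with 52.6% and 53.2% of all genes. Lower in both lines were PPARA, the receptor for fatty acids (log2 differences -1.03 and -1.47), NR1H4, the bile acid receptor FXR (-0.61 and -1.01), and NR1H3, the oxysterol receptor LXR alpha (-0.64 and -0.44). ESRRA, a regulator of mitochondrial genes, was higher in both (0.32 and 0.34), in Huh7 at 0.17 and not called with spike-in scaling.

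As with FOXA1, some of these regulators moved in opposite directions after DSF. HHEX, an early liver bud factor, fell in Huh1 (-0.39) and rose in Huh7 (0.85). GATA4 (-0.72 and 0.35), NR2F2 (-0.75 and 0.30) and NR2F6 (-0.49 and 0.20) did likewise. With spike-in scaling the Huh7 values of GATA4 (0.17), NR2F2 (0.12) and NR2F6 (0.02) and the Huh1 value of HHEX (-0.26) were not called. SOX9, a biliary and progenitor factor, rose in Huh1 (1.23) and fell in Huh7 (-0.44, not called with spike-in scaling, adjusted p = 0.0522). NR0B2 (SHP), the repressor induced by NR1H4 and NR5A2, was 2.42-fold higher in Huh1 after DSF (log2 difference 1.27, adjusted p = 0.011), and was at 0.33 in Huh7 (adjusted p = 0.482). The Huh1 value was 0.79 without control replicate 1 (adjusted p = 0.0464).

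After 5-FU, 11 regulators were higher and 6 lower in Huh1, and 12 were higher and 6 lower in Huh7, with medians of 0.10 and 0.17 that become 0.92 and 1.16 with spike-in scaling. The 65.4% and 69.2% called compare with 54.9% and 63.5% of all genes. NR0B2 changed most: its level went from -1.17 to 2.59 in Huh1, a 13.5-fold increase (log2 difference 3.76, adjusted p = 1.87e-06), and from -1.51 to 2.49 in Huh7, a 16.0-fold increase (adjusted p = 3.97e-07). ATF5, a liver-rich stress factor, rose as well (0.81 and 2.33). CEBPD, a factor of the acute phase response, was lower in both lines (-0.95 and -0.93). With spike-in scaling neither value was called (-0.13 in Huh1, adjusted p = 0.44, and 0.06 in Huh7, adjusted p = 0.716).

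Known target genes were grouped by factor, and the lists overlap, with G6PC1 on 4 of them. Of 22 HNF4A targets tested, 0 were higher and 14 lower in Huh1 after DSF, and 3 were higher and 10 lower in Huh7, with medians of -0.74 and -0.34. The 63.6% and 59.1% called compare with 52.6% and 53.2% of all genes. Of all genes, 26.3% and 24.1% were called lower. Lower in both lines were APOC3, an apolipoprotein that slows lipoprotein clearance (-1.67 and -2.92), G6PC1, the last enzyme of glucose production (-2.45 in Huh1 and at least 6.12-fold lower in Huh7, where no DSF array was well above background), SERPINA1, alpha-1 antitrypsin (-0.64 and -0.84), and TF, transferrin (-0.54 and -0.63). LIPC, hepatic lipase, went down in Huh1 (-0.95) and up in Huh7 (0.64). A bound of the kind given for G6PC1 sets the mean of the bright group against the lowest signal that was well above background on each array of the dim group, or the dim probe's own where that was higher. TTR, transthyretin, fell 3.27-fold in Huh1 (-1.71, adjusted p = 1.13e-05) and was at -0.11 in Huh7 (adjusted p = 0.684).

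After 5-FU, 6 of the 22 HNF4A targets were higher and 7 lower in Huh1, and 12 were higher and 4 lower in Huh7, with medians of 0.25 and 0.63. The 59.1% and 72.7% called compare with 54.9% and 63.5% of all genes. APOM, an apolipoprotein of HDL, rose in both lines (1.1 and 2.38). CYP2D6 (-0.46 and -1.33) and coagulation factor F7 (-0.68 and -0.52) were lower in both. APOB (-0.45 and 0.69), LIPC (-0.63 and 1.33) and SERPINA1 (-0.28 and 0.40) went in opposite directions in the lines. Relative to the spike-ins the negative values of F7, APOB, LIPC and SERPINA1, and that of CYP2D6 in Huh1, turn positive. TTR was at 0.49 in Huh1 (adjusted p = 0.063) and was 2.43-fold higher in Huh7 (1.28, adjusted p = 8.36e-05).

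Of 11 FOXA targets, 1 was higher and 8 lower in Huh1 after DSF, and 3 were higher and 4 lower in Huh7. The called shares were 81.8% and 63.6%, against 52.6% and 53.2% of all genes. The gluconeogenic enzyme PCK1 was lower in both lines (-2.14 and -4.42), and IGFBP1, a secreted binder of insulin-like growth factors, was higher in both (3.52 and 1.61). ALB, albumin, was lower in both lines after DSF (-0.25 and -0.33). Its Huh1 call was lost without control replicate 2 or DSF replicate 1 or 2, with adjusted p from 0.0605 to 0.0744. With spike-in scaling the Huh1 value after DSF was -0.11 and not called (adjusted p = 0.589). ALB was also lower in both lines after 5-FU (-0.34 and -0.35), but at 0.49 and 0.64 with spike-in scaling. CPS1, the first enzyme of the urea cycle, was lower in Huh1 and higher in Huh7 after DSF (-1.50 and 1.08) and after 5-FU (-0.59 and 0.53), the Huh1 5-FU value being positive relative to the spike-ins. After 5-FU, 4 FOXA targets were higher and 4 lower in Huh1, and 7 were higher and 3 lower in Huh7. That is 72.7% and 90.9% called, against 54.9% and 63.5% of all genes. AMBP, a plasma protein precursor, was higher in both lines (0.48 and 0.88). AFP, the fetal counterpart of albumin, was called higher in Huh1 (0.90) and lower in Huh7 (-0.40, and 0.59 with spike-in scaling) after 5-FU. The Huh7 call was lost without replicate 1 or 2 of the control or replicate 1 or 3 of the 5-FU group (adjusted p from 0.0662 to 0.091). AFP was at -0.53 (adjusted p = 0.00911) and 0.21 (adjusted p = 0.254) after DSF.

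Of 11 CEBPA targets, 1 was higher and 9 lower in Huh1 after DSF, with a median of -1.50, and 4 were higher and 5 lower in Huh7, with a median of -0.47. The called shares were 90.9% and 81.8%, against 52.6% and 53.2% of all genes. HAMP, which encodes the iron hormone hepcidin, went down in Huh1 (-1.83) and up in Huh7 (0.67). With spike-in scaling its Huh7 value was 0.49 and not called (adjusted p = 0.0663). IGF1 was not well above background on any control array of either line and was at least 4.87-fold higher in Huh1 and at least 3.75-fold higher in Huh7 after DSF. After 5-FU, 2 were higher and 4 lower in Huh1, and 7 were higher and 3 lower in Huh7. That is 54.5% and 90.9% called, against 54.9% and 63.5% of all genes. HP, haptoglobin, was lower in both lines after DSF (-0.94 and -1.56) and after 5-FU (-1.78 and -1.47). With spike-in scaling its Huh7 value after 5-FU was -0.49 and not called (adjusted p = 0.108).

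Of 7 ONECUT1 targets, which include the members HNF4A and FOXA2, 4 were lower in Huh1 and 2 in Huh7 after DSF, and 0 were higher in either line. The 57.1% and 28.6% called compare with 52.6% and 53.2% of all genes. After 5-FU, 3 were higher in each line, and 0 in Huh1 and 2 in Huh7 were lower. The called shares were 42.9% and 71.4%, against 54.9% and 63.5% of all genes. Of 10 NR5A2 targets tested, DSF left 2 higher and 4 lower in Huh1, against 1 and 5 in Huh7. Both lines had 60% called, against 52.6% and 53.2% of all genes. APOA1, the main protein of HDL, was lower in both lines after DSF (-2.03 and -0.82) and higher in both after 5-FU (0.62 and 0.88). SCARB1, the HDL receptor, was lower in both after DSF (-0.70 and -0.15), and CCNE1, a cyclin of G1, was higher in both (0.61 and 0.49). With spike-in scaling neither Huh7 value was called (SCARB1 at -0.33, adjusted p = 0.0546, and CCNE1 at 0.32, adjusted p = 0.0891). ABCG8, a sterol exporter, was at least 2.32-fold lower in Huh1 after DSF, where 1 control array and no DSF array was well above background, and fell 4.41-fold in Huh7. After 5-FU, 7 NR5A2 targets were higher and 1 lower in Huh1, and 4 were higher and 1 lower in Huh7. That is 80% and 50% called, against 54.9% and 63.5% of all genes. CYP7A1, the rate-limiting enzyme of bile acid synthesis, was well above background on 4 arrays in all and was at least 2.13-fold higher after 5-FU in Huh1 (adjusted p = 0.00975), but its log2 difference was -0.02 with normexp background correction. The call was also lost without control replicate 2 (adjusted p = 0.0517). CYP8B1 was not well above background on any array.

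Markers of cell types are given beside these lists. Of the 10 hepatocyte markers, 7 are also on a target list, so their movement is no separate observation. Their summed level lay between 9.65 and 9.84 on the Huh1 control arrays, 9.16 and 9.26 after DSF, and 9.42 and 9.74 after 5-FU. In Huh7 it lay between 9.44 and 9.48 in the control, 8.98 and 8.99 after DSF, and 9.72 and 9.87 after 5-FU. Of the 10 markers, 8 were lower and 0 higher in Huh1 after DSF, and 6 were lower and 1 higher in Huh7, against the 52.6% and 53.2% of all genes called. Of 6 cholangiocyte markers, 3 were higher and 0 lower in Huh1 after DSF, and 2 were higher and 1 lower in Huh7 (50% called in each line). After DSF in Huh1, KRT19 went from 2.90 to 4.89, KRT7 from 4.98 to 5.75 and SOX9 from -4.06 to -2.83. Of 5 fetal and progenitor markers, 3 were lower after DSF in each line and 1 was higher in Huh1 (80% and 60% called). Among them GPC3, an oncofetal surface protein, went from 5.60 to 4.23 in Huh1 and from 5.60 to 4.70 in Huh7. EPCAM, the gene of the protein used for the sort, went from 2.62 to 1.96 and from 5.49 to 5.00, and its Huh1 decrease was not called relative to the spike-ins (adjusted p = 0.0816). The part of these markers in the results was not tested. The summed fibroblast markers rose in Huh7 after 5-FU, to between 1.60 and 1.68 from at most -0.89 in the control, where 3 of the 4 tested were called higher. Of all genes, 32.5% were called higher there. LUM, a matrix proteoglycan, went from -1.23 to 1.49, DCN was at least 9.15-fold higher and PDGFRB at least 3.27-fold higher, while COL3A1 and COL1A2 were too dim to test. Their part in the results was not tested.

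Across the 18 arrays, with each line's mean subtracted, the member pairs closest in pattern were HNF4A with NR5A2 (r = 0.87), ONECUT1 with NR5A2 (r = 0.83) and FOXA1 with CEBPA (r = 0.82). FOXA2 and PROX1 were the most opposed (r = -0.49). These values describe arrays that share treatments and slides. Among 12720 genes with a probe well above background on all arrays, the nearest to HNF4A was BIVM (r = 0.98), to FOXA1 PCBP1 (r = 0.98), to FOXA2 PGAP2 (r = 0.97), to FOXA3 JUND (r = 0.97), to ONECUT1 MAN2A2 (r = 0.99), to PROX1 MSRB3 (r = 0.97) and to NR5A2 NAAA (r = 0.96). CEBPA had RXRA, the partner receptor of PPARA and NR1H4, among its 3 nearest (r = 0.97). FOXA3 had APOC2, an HNF4A target, among its 3 nearest (r = 0.96), and PROX1 had F11, a coagulation factor made in the liver (r = 0.96).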

How the data were processed

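Total RNA of 18 samples was labelled with Cy3 and hybridized to 1-colour Agilent human arrays, 1 sample per array. The deposited intensity values are processed signals of Agilent Feature Extraction 10.7.1.1 (per the submitters' processing notes), already background-subtracted by the authors' scanner software. The deposited signal table holds the authors' GeneSpring values, whose column medians lie between 0.0685 and 0.0833. Every value of that table fell within 0.05 log2 units of the processed signal divided by its 75th percentile. It was used as an alternative.

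The members and gene lists were chosen with earlier results of these data known. Of 42405 probes, 78 flagged as outliers were left out, and 25736 of the remainder could be named by RefSeq accession or gene symbol, for 19720 genes. The log2 processed signal minus each array's log2 75th percentile (10.1 to 10.8) was analysed. A probe was tested if every array of some group (3 arrays) had it well above background, and a gene was represented by its brightest tested probe. Between 59.9% and 71.1% of the probes per array were well above background. Groups came from the sample labels. All 6 groups entered 1 limma fit (limma 3.58.1, R 4.3.3; 12 residual degrees of freedom) with Benjamini-Hochberg adjustment and a threshold of 0.05, and the fit was checked on simulated data. Only 3 arrays per group limit the precision.

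Named genes were all members, NR0B2, ALB, AFP, TTR, CYP7A1 and CYP8B1, list genes that were called one way after a drug in both lines (where there were more than 4, the 2 highest and 2 lowest by mean change) or in opposite ways, and the 3 genes most correlated with each member; not all that qualified are named, and some are not reported here. Alternatives, 12 besides leaving out each array and 1 added after seeing the data (arrays of 1 slide), are described in the closing section. Normexp (offset 50) used the median spot signal, since the scanner tables used here have no mean signal. Motifs were counted with Python 3.11.15.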

Additional observations from a re-analysis of the deposited data

Results flagged for a closer look

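For 5 members the DSF effect differed between the lines, by a test of the difference in the limma fit. The difference, Huh7 minus Huh1, was 1.14 for CEBPA, 0.99 for FOXA1, 0.60 for PROX1, 0.44 for ONECUT1 and 0.36 for FOXA2. With spike-in scaling that of FOXA2 (0.05), ONECUT1 (0.13) and PROX1 (0.29) was no longer called, and that of FOXA3 (-0.64) was. For 4 members the 5-FU effect differed, by 1.05 for PROX1, -0.70 for FOXA2, -0.37 for HNF4A and 0.37 for FOXA1. The 5-FU differences of HNF4A and FOXA1 were lost without 7 and 9 of the 12 arrays, respectively, each left out in turn.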

How the results depend on the processing

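Values are log2 differences, and "members called" are of 8. Spike-in scaling changed most. Members called were 4 after DSF in Huh1, 7 after 5-FU in Huh1, 8 for DSF against 5-FU in Huh7, 3 for the line difference after DSF and 1 for that after 5-FU. In the same order, 5605, 12374, 13887, 4899 and 4270 of all 15852 genes were called. It turned these 5-FU values: in Huh1 HNF4A to 0.71, FOXA1 to 0.67, FOXA2 to 0.77, CEBPA to 0.19 and ALB to 0.49; in Huh7 HNF4A to 0.50, FOXA2 to 0.24, CEBPA to 0.87, NR5A2 (brighter probe) to 0.86, ALB to 0.64, AFP to 0.59 and CYP7A1 to 0.39. It also turned DSF against 5-FU in Huh7 for FOXA1 (-1.09) and FOXA2 (-0.53), HNF4A between the controls (0.049), and the line difference after DSF of HNF4A (-0.079) and NR5A2 (-0.26).

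Median scaling left 3 members called after DSF in Huh7 and 2 for the line difference after 5-FU, where 7603 and 6108 of all 15852 genes were called. It turned FOXA3 (-0.12) and the dimmer NR5A2 probe (-0.095) after DSF in Huh1. Quantile normalization turned the dimmer NR5A2 probe (-0.056) after DSF in Huh1, ALB after 5-FU in Huh1 (0.13), and CEBPA (0.066), ALB (0.21) and AFP (0.13) after 5-FU in Huh7. Normexp turned CYP7A1 after DSF in Huh7 (-0.068) and after 5-FU in Huh1 (-0.017), CEBPA for DSF against 5-FU in Huh7 (0.0053), HNF4A between the controls (0.011) and NR5A2 for the line difference after DSF (-0.024). The mean of both probes turned NR5A2 after 5-FU in Huh7 (0.30) and in the line differences after DSF (-0.10) and 5-FU (0.11).

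After DSF in Huh7, 3 members were called with slide as a block and 1 within 1 slide. Both turned AFP (-0.13) and CYP7A1 (-0.0051) there, and CEBPA for DSF against 5-FU in Huh7 (9.35e-05). For the line difference after 5-FU, 2 members were called without the filter on dim probes, 2 with the compared groups alone and 2 by the study's rule of selection. Without that filter 6193 of all 15852 genes were called, and 6233 with the compared groups alone.

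Leaving out 1 array at a time, 3 to 4 members were called after DSF in Huh7 and 2 to 5 for the line difference after 5-FU. Direction was not kept for FOXA3 (-0.066 to 0.12) and the dimmer NR5A2 probe (-0.087 to 0.24) after DSF in Huh1, CYP7A1 (-0.034 to 0.46) after DSF in Huh7, PROX1 after 5-FU in Huh1 (-0.040 to 0.19), FOXA1 (-0.0040 to 0.12) and CEBPA (-0.083 to 0.090) for DSF against 5-FU in Huh7, HNF4A between the controls (-0.10 to 0.053) and NR5A2 for the line difference after DSF (-0.032 to 0.082). The cause was not tested for any of these.

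Same-numbered arrays of different groups deviated with correlations from -0.09 to 0.10, so no pairing by number was seen. Low correlations do not show that these arrays came from different experiments. The replicate block left the DSF change of FOXA3 in Huh7 uncalled (-0.28, adjusted p = 0.0602) and changed no other call. Genes called after DSF in Huh7 were 8432, against 5606 with slide as a block, 4327 within 1 slide and 5618 with spike-in scaling. For the line difference after 5-FU they were 6916, against 4270 with spike-in scaling. The share of called genes that were higher moved from 54.7% to 30.0% after DSF in Huh7, from 54.6% and 52.9% to 7.14% and 3.01% for DSF against 5-FU in Huh1 and Huh7, and from 52.6% and 54.3% to 16.9% and 69.2% for the line differences after DSF and 5-FU with spike-in scaling. With median scaling it was 37.3% for DSF against 5-FU in Huh1 and 67.8% for the line difference after DSF, and with normexp 36.2% after 5-FU in Huh1. The deposited normalized values left every direction and call unchanged. Decreases of HNF4A after DSF in both lines, and of FOXA1, CEBPA and ONECUT1 after DSF in Huh1, were called under every alternative run.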
